A study of Rattus norvegicus with 36 samples.

Results

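The genes followed here encode subunits of large-conductance calcium-activated (BK), ATP-sensitive (KATP) and classical inward rectifier potassium channels, measured in the rat thoracic descending aorta. They were chosen by symbol from the 26106 genes of the deposited table: Kcnma1, Kcnmb1, Kcnmb2, Kcnmb4, Kcnj8, Abcc9 and Kcnj2, 7 genes in all. The aortas came from male rats of 3 strains, the Dahl salt-sensitive SS strain and its congenic derivatives S2Ba and S2Bb, which carry Brown Norway chromosome 2 in place of the SS sequence over the distal portion and the middle segment, respectively. Both congenic strains are SS rats by their labels apart from these segments, and no Brown Norway parent is among the samples analysed here. Feeding with a normal or a high salt diet (4% NaCl) began at 4 to 6 weeks of age and ended at 12 to 13 weeks. The total RNA libraries numbered 6 each for SS, S2Ba and S2Bb on normal salt and 5, 5 and 6 on high salt, 34 in all, against 36 labelled samples; the other 2 were not analysed here. The labels do not state that each library came from a separate animal, so p-values set group differences against the spread between these libraries. Where the ends of the chromosome 2 segments lie is not given in the sources used here.

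BK channels are opened by depolarisation and by local calcium release in arterial smooth muscle, and the outward potassium current they carry opposes constriction. Kcnma1 encodes the pore-forming alpha subunit, while the Kcnmb genes encode auxiliary beta subunits, of which beta1 is the smooth muscle form that raises calcium sensitivity. Vascular KATP channels are built from the pore subunit Kir6.1, encoded by Kcnj8, and the sulfonylurea receptor SUR2, encoded by Abcc9, and they couple the metabolic state of the cell to its membrane potential. Kcnj2 encodes Kir2.1, an inward rectifier that helps to set the resting potential in endothelium and in small arteries. Among the 8 smooth muscle markers, Myh11 had group means of 8523 to 11178, and the summed level of the list ranged from 22223 to 29928 over all libraries. Summed cardiac muscle markers did not exceed 4.507 in any library.

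The start-site windows of the 3 subunit genes that changed with diet are shown first, because Abcc9 and Kcnj8 lie side by side on chromosome 4 whereas Kcnmb1 lies on chromosome 10. Each window holds 250 bases before and 50 after the annotated start and comes from RefSeq (GRCr8), with Kcnmb1 at chr10:19061849-19062148 (plus strand), Abcc9 at chr4:177386299-177386598 (minus strand) and Kcnj8 at chr4:177246499-177246798 (minus strand). Capitals mark the match to the MEF2 motif, a binding motif of a muscle transcription factor family.
Kcnmb1: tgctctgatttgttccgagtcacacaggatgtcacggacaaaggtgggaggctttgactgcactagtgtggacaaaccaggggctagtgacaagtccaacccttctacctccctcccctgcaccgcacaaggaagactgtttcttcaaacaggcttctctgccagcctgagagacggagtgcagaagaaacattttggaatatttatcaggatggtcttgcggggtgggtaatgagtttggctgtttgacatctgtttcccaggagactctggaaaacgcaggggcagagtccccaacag
Abcc9: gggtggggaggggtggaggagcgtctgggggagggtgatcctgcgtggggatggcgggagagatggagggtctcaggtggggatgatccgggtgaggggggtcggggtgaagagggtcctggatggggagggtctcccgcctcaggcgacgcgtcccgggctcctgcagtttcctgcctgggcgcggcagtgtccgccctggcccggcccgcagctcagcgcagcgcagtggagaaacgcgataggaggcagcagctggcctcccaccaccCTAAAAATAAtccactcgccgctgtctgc
Kcnj8: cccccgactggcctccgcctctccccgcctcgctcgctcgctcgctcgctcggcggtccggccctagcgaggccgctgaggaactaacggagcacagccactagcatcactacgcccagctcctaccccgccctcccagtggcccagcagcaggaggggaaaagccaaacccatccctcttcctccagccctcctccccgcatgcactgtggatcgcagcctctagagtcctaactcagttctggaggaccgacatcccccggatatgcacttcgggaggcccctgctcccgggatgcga
All 7 genes matched the promoter table. GC content was 51.7% in the Kcnmb1 window, equal to the median of the 33469 windows, and 69.0% and 67.0% in the Abcc9 and Kcnj8 windows. On both strands, 4 motifs were searched: the CArG box and the MEF2 motif, each in its degenerate form, the E-box CACGTG and the GC box GGGCGG. The MEF2 motif was present only in the Abcc9 window among the 7, as CTAAAAATAA beginning 21 bases downstream of the start, and in 3.29% of all windows. None of the 7 windows held a CArG box, found in 1.64% of all windows, or an E-box, found in 6.42%. GC boxes, found in 33.1% of all windows, numbered 5 for Kcnma1, 4 for Kcnmb4, 1 each for Abcc9, Kcnj8 and Kcnj2, and 0 for Kcnmb1 and Kcnmb2.

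Values are the deposited normalised read values, that is, reads divided by a library size factor, and are not corrected for gene length, so levels are compared within a gene only. Recovered library depth was 8753735 to 15168833 reads. Differences were tested with limma on log2(value + 0.5) over the 13475 genes with a mean of at least 0.5, in 1 fit over the 6 groups, and a gene was called at a Benjamini-Hochberg adjusted p under 0.05. Of the 7 genes, 5 reached that mean and were tested, and Kcnmb2 and Kcnmb4 were too low. In this bulk tissue, fewer cells of a type and less RNA per cell cannot be told apart.

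On high salt, Abcc9 fell and Kcnmb1 rose, with Abcc9 called in all 3 strains and Kcnmb1 in SS and S2Bb. Kcnj8 fell in S2Bb. Kcnma1 and Kcnj2 were not called in any strain. The salt comparison called 2 of the 5 tested genes in SS against 8.38% of all genes tested, 1 of 5 in S2Ba against 15.2%, and 3 of 5 in S2Bb against 22.1%. These counts over 5 genes are descriptions, and no share particular to the channels is read from them.

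**Figure D1:**
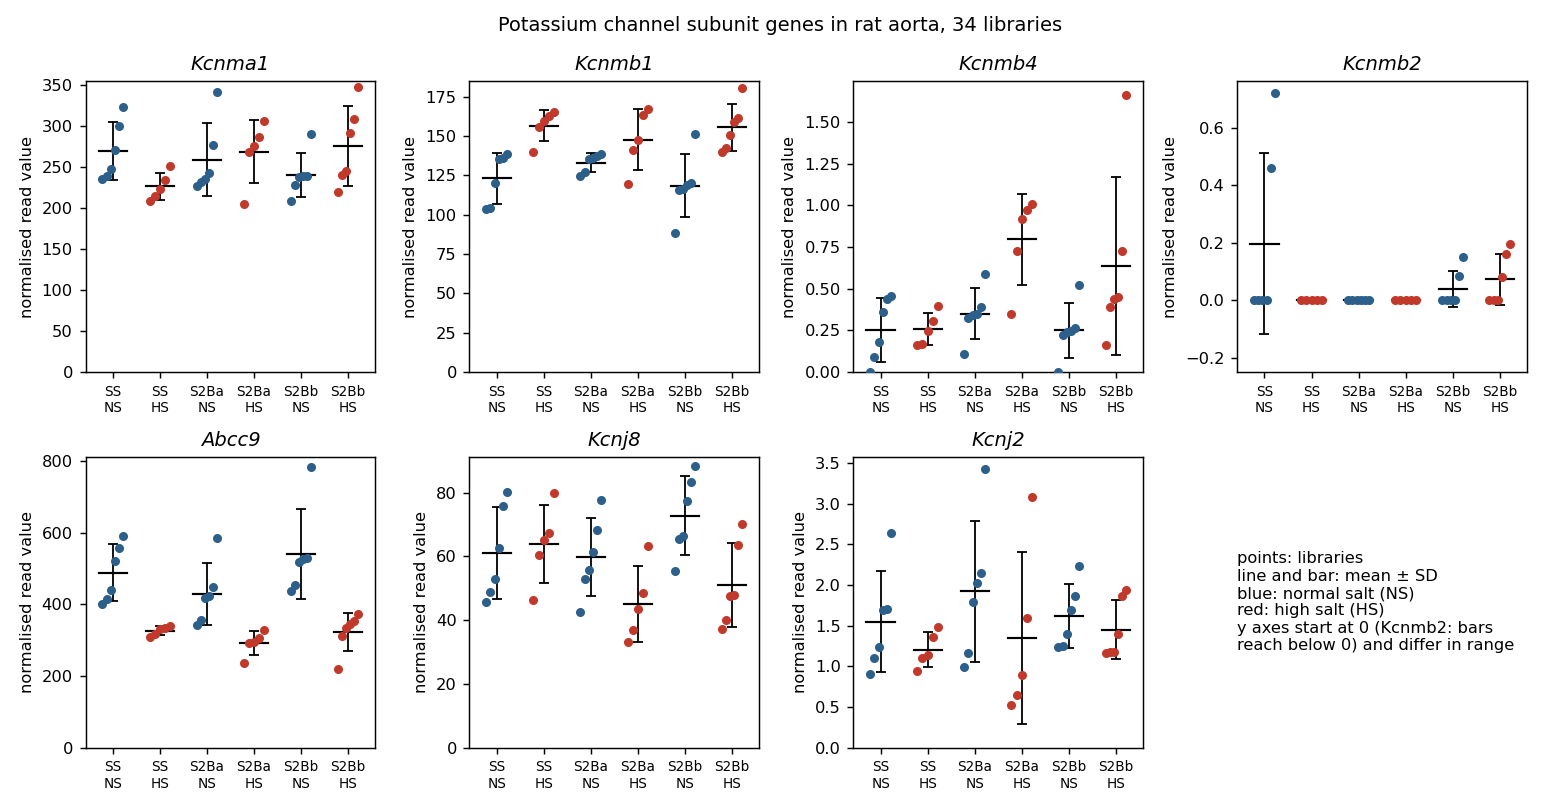
Normalised read values (y axis, starting at 0 except for Kcnmb2) of the 7 genes in the 6 strain and diet groups (x axis), with 1 point per library and the mean ± SD as line and bar, blue for normal and red for high salt. Every high salt Abcc9 point lies below the normal salt points of its own strain, and the 5 SS high salt Kcnmb1 points (139.9 to 165.4) lie above the SS normal salt points.

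Kcnmb1, the BK beta1 subunit, had normalised values of 103.9 (lowest), 127.8 (median) and 138.8 (highest) in SS aortas on normal salt. Replicates 1, 2 and 3 of this group were at 138.8, 135.8 and 135.5. The other replicates, 4, 5 and 6, were lower, at 104.5, 120.0 and 103.9. On high salt the SS values were 139.9, 159.3, 155.5, 165.4 and 162.5. All 5 high salt libraries lay above all 6 normal salt libraries, the closest pair being 138.8 and 139.9. The mean rose from 123.1 ± 16.02 (SD, n = 6) to 156.5 ± 9.97 (SD, n = 5), a log2 fold change of 0.35 (SE 0.10) with an adjusted p of 0.0259 (limma, Benjamini-Hochberg). Groups that did not overlap, with high salt higher, occurred in 3.34% of the genes tested in SS, 4.44% were called higher and 3.94% lower. In S2Bb the normal salt values were 88.16, 117.7 and 151.1 (lowest, median and highest) and the high salt values 139.7, 154.9 and 180.3. Of the 6 high salt libraries, 3 exceeded the highest normal salt library, and the others overlapped with that library alone. The S2Bb mean rose from 118.4 ± 20 to 155.6 ± 14.95 (SD, n = 6 each), a log2 fold change of 0.40 (SE 0.10) with a limma adjusted p of 0.00236, where 10.7% of genes tested were called higher and 5.31% were higher without overlap. In S2Ba the normal salt values of 124.6, 135.7 and 138.5 met high salt values of 167.3, 147.3, 119.4, 140.9 and 163.5. Of these high salt libraries, 4 were above and 1 was below the whole normal salt range, in a comparison where 8.12% of genes tested were called higher, 7.04% lower and 2.96% were higher without overlap. The S2Ba log2 fold change was 0.14 (95% interval -0.06 to 0.34, limma adjusted p = 0.362). The S2Ba and SS responses differed by -0.21 (95% interval -0.50 to 0.07, limma adjusted p = 0.651), so the missed call in S2Ba does not show a different response. The SS call was lost when any of 6 libraries was left out: the limma adjusted p became 0.0703 or 0.0776 without normal salt replicate 4 or 6 and 0.0547, 0.0540, 0.0724 or 0.0657 without high salt replicate 2, 4, 5 or 6. It was also lost with 2 clock gene components in the model (log2 fold change 0.42, adjusted p = 0.0629) and with surrogate variables (0.16, adjusted p = 0.431), and the S2Bb call was lost with surrogate variables (0.19, adjusted p = 0.204).

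Kcnma1, the BK pore, gave 235.7, 259.7 and 323.7 (lowest, median and highest) in SS on normal salt and 251.7, 234.0, 224.0, 208.6 and 214.6 on high salt. On high salt 4 of 5 libraries lay below the normal salt range, and replicate 1 lay inside it. The SS log2 fold change was -0.24 (95% interval -0.48 to -0.01, limma adjusted p = 0.190). Replicate 1 was also the SS high salt library whose level of the circadian gene Arntl (74.34) lay in the normal salt range, and with the 2 clock components in the model the SS log2 fold change of Kcnma1 was -0.085 (limma adjusted p = 0.773). With surrogate variables it was -0.33 (limma adjusted p = 0.0451). Over 34 libraries, Arntl had a correlation of -0.372 with Kcnmb1, and of 0.0972 with group means taken out. For Kcnma1 these correlations were 0.351 and 0.331. The part of the clock in the Kcnma1 values was not tested. In S2Ba, values ran from 226.9 through a median of 239.2 to 341.8 on normal salt and were 204.9, 276.0, 286.9, 269.2 and 306.8 on high salt, a log2 fold change of 0.05 (95% interval -0.18 to 0.29, limma adjusted p = 0.806). The 2 S2Ba ranges overlapped, with replicate 1 the lowest of either diet. S2Bb libraries gave 208.5, 238.7 and 290.4 on normal salt and 220.0, 268.1 and 348.2 on high salt. In S2Bb, 3 of 6 high salt libraries were above the normal salt range and none was below it. Their log2 fold change was 0.18 (95% interval -0.04 to 0.41, limma adjusted p = 0.251). The S2Bb response was 0.43 higher than the SS response (SE 0.16, 95% interval 0.10 to 0.76), with an unadjusted p of 0.0126 and a limma adjusted p of 0.261, which does not pass the threshold. Over the 9 settings other than leaving out 1 library, this difference ran from 0.22 to 0.44 and was never called.

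The ratio of Kcnmb1 to Kcnma1 was followed within each library, where the library size factor cancels. In SS it ran from 0.321 through a median of 0.468 to 0.576 on normal salt and was 0.556, 0.681, 0.694, 0.793 and 0.757 on high salt. Of the high salt libraries, replicate 1, the one with normal salt levels of Arntl, fell inside the SS normal salt range and the other 4 above it. Median ratios were 0.543 and 0.533 in S2Ba and 0.493 and 0.582 in S2Bb, on normal and high salt in that order, and these ranges overlapped (0.399 to 0.611 against 0.416 to 0.817, and 0.304 to 0.725 against 0.479 to 0.661). In S2Ba, high salt replicates 1, 3, 4, 5 and 6 had ratios of 0.817, 0.534, 0.416, 0.523 and 0.533. Their Arntl values were 50.39, 40.32, 17.41, 75.36 and 76.82, in the same order. The S2Bb ratios were 0.518, 0.479 and 0.661 in high salt replicates 1, 2 and 3 (Arntl 82.85, 79.85 and 80.23). They were 0.489, 0.66 and 0.646 in replicates 4, 5 and 6 (Arntl 20.64, 4.444 and 2.831). The link of the ratio with Arntl was not tested. The ratios are a description on read values and were not tested. They give no subunit stoichiometry, because the 2 transcripts differ in length and protein was not measured.

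**Figure D2:**
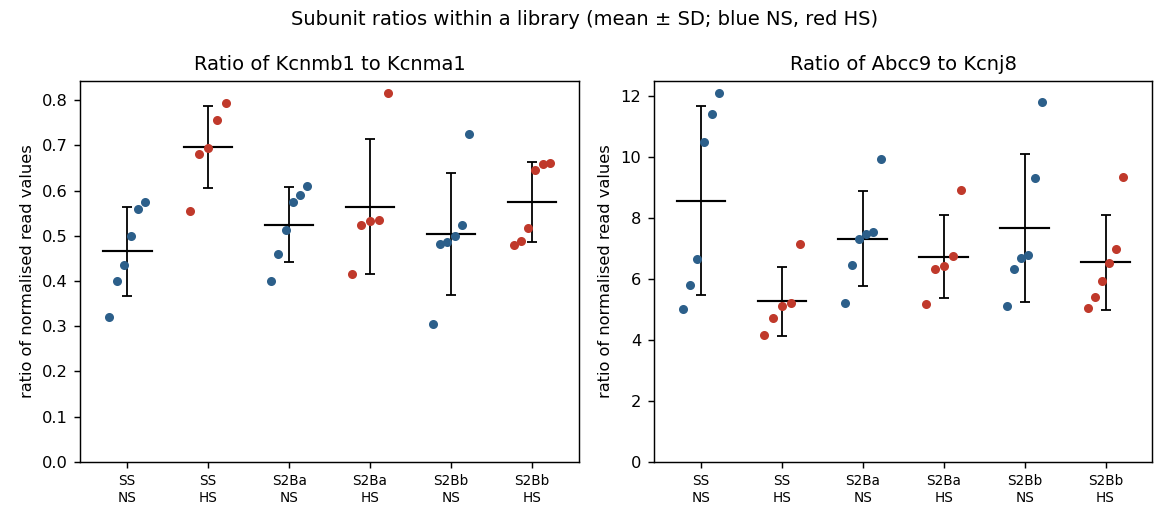
Ratio of normalised read values of Kcnmb1 to Kcnma1 and of Abcc9 to Kcnj8 (y axes, from 0) in each library of the 6 groups (x axis), with mean ± SD. In SS the Kcnmb1 to Kcnma1 ratio is higher on high salt (median 0.694 against 0.468) and the Abcc9 to Kcnj8 ratio lower (5.11 against 8.59), with overlap in both, while both ratios overlap widely in S2Ba and S2Bb.

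The other BK beta subunits were close to the detection limit. Kcnmb4, the beta4 subunit that is mainly neuronal, had 171 reads in all, with 0 reads in 2 of the 34 libraries. Its reads over the group were 25 on normal and 48 on high salt in S2Ba, 20 and 45 in S2Bb, and 17 and 16 in SS. In S2Ba the normalised values were 0.1105, 0.3444 and 0.5894 (lowest, median and highest) on normal salt and 0.9738, 0.7286, 0.9161, 0.3493 and 1.011 on high salt. On high salt, 4 of these 5 libraries exceeded the normal salt range. In S2Bb, replicate 1 on high salt contributed 20 of the 45 reads. With no filter on the mean, the log2 fold change was 0.60 in S2Ba (adjusted p = 0.114), 0.53 in S2Bb (adjusted p = 0.126) and 0.04 in SS (adjusted p = 0.960) with limma, so Kcnmb4 was not called; that fit called 5.88%, 9.55% and 2.77% of the 26106 genes. Of the 5 tested Schwann and neuronal markers, Uchl1 was called higher on high salt in all 3 strains (group means 4.013 and 8.14 in SS, 4.326 and 13.07 in S2Ba, 2.719 and 9.038 in S2Bb) and Mbp lower in SS (log2 fold change -1.22, limma adjusted p = 0.049). The median log2 fold change of this list was -0.278 in SS, -0.454 in S2Ba and -0.119 in S2Bb, and its summed level overlapped between diets in each strain. The part of these cells in the Kcnmb4 values was not tested. Kcnmb2, the beta2 subunit, is the only one of the 7 genes on chromosome 2 in GRCr8, and whether it lies in a substituted segment is not known here. It had 19 reads, found in 7 libraries: 11 reads in SS replicates 1 and 2 on normal salt, 3 reads in 2 S2Bb libraries on normal salt and 5 reads in 3 S2Bb libraries on high salt. No read was found in SS on high salt or in S2Ba on either diet. A count of 0 still allows a group mean of 0.0484, 0.0431 and 0.05 in those 3 groups (3 reads over the group, counting error only), so absence cannot be stated at this depth.

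Abcc9, the SUR2 regulatory subunit of the vascular KATP channel, was the member with the most reads (164365 in all) and fell on high salt in each strain. In SS the normalised values were 401.6, 480.5 and 590.4 (lowest, median and highest) on normal salt and 332.8, 308.8, 332.1, 316.9 and 341.0 on high salt. Normal salt replicates 1, 2 and 3 were at 415.6, 439.7 and 401.6. Normal salt replicates 4, 5 and 6 were higher, at 521.4, 558.1 and 590.4. All 5 high salt libraries lay below all normal salt libraries and within a narrow range of their own. The mean fell from 487.8 ± 79.5 (SD, n = 6) to 326.3 ± 13.1 (SD, n = 5), a log2 fold change of -0.56 (SE 0.14) with a limma adjusted p of 0.0124. In S2Ba the values of 341.4, 421.1 and 585.6 on normal salt met 237.8, 307.1, 293.6, 327.6 and 295.9 on high salt, again without overlap. The S2Ba mean fell from 429.0 ± 87.4 to 292.4 ± 33.3 (SD, n = 6 and 5), a log2 fold change of -0.54 (SE 0.14) with a limma adjusted p of 0.0082. In S2Bb the values were 437.5, 521.6 and 783.9 on normal salt and 220.9, 339.4 and 374.0 on high salt, with no overlap either. The S2Bb mean fell from 541.0 ± 125 to 323.0 ± 54.2 (SD, n = 6 each), a log2 fold change of -0.74 (SE 0.13) with a limma adjusted p of 0.000149. Of all genes tested, 1.28% were called lower in each of the 3 strains, and groups that did not overlap with high salt lower occurred in 2.65% (SS), 2.35% (S2Ba) and 5.04% (S2Bb). The responses of S2Ba and S2Bb differed from that of SS by 0.03 (95% interval -0.37 to 0.43) and -0.17 (95% interval -0.56 to 0.22), neither called (limma adjusted p = 0.980 and 0.766).

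**Figure D3:**
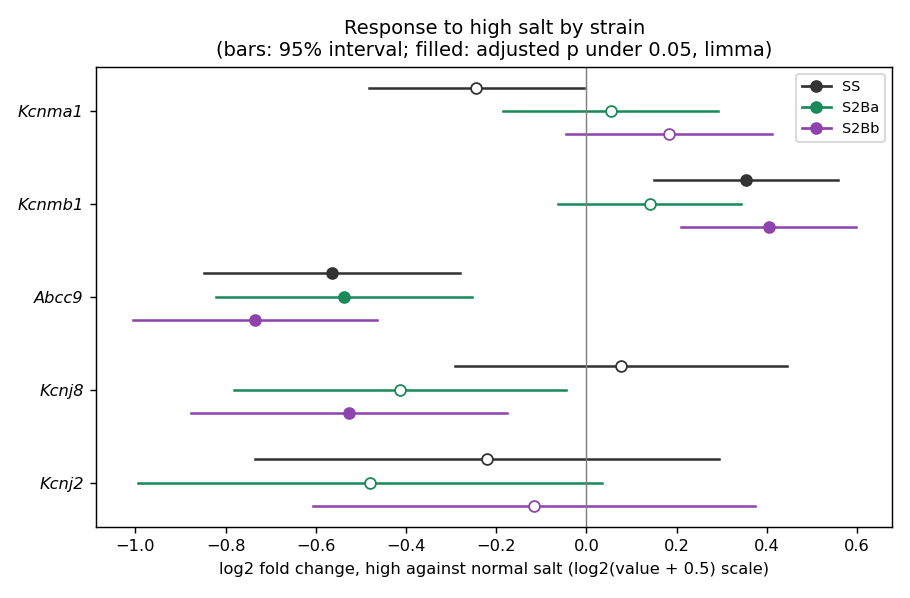
Log2 fold change of the 5 tested genes (x axis, high against normal salt on the log2(value + 0.5) scale) with 95% intervals, by strain, with filled points for limma adjusted p under 0.05. The 3 Abcc9 points lie between -0.74 and -0.54, while those of Kcnma1 lie at -0.24 in SS and at 0.05 and 0.18 in the congenic strains.

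S2Bb replicate 2 on normal salt held the highest Abcc9 value and the lowest Kcnmb1 value of all 34 libraries; without it the S2Bb log2 fold change was -0.62 for Abcc9 (limma adjusted p = 0.00061) and 0.32 for Kcnmb1 (limma adjusted p = 0.0102). Leaving out any other single library also kept Abcc9 called in its strain. With surrogate variables in the model the S2Bb call held (log2 fold change -0.35, limma adjusted p = 0.0356), but the SS and S2Ba calls were lost (-0.27, adjusted p = 0.194, and -0.12, adjusted p = 0.615). Levels of the circadian gene Arntl differed among high salt libraries. Their correlation with Abcc9 over 34 libraries was 0.34, and with group means, and so the diet difference, taken out it was -0.13. SS high salt replicate 1 had an Arntl value of 74.34, within the SS normal salt range of 60.13 to 87.22, while the other 4 SS high salt libraries were at 2.43 to 11.42, and its Abcc9 value of 332.8 was among theirs. With the 2 clock components in the model the Abcc9 log2 fold changes were -0.70 in SS (limma adjusted p = 0.0249), -0.55 in S2Ba (adjusted p = 0.00948) and -0.72 in S2Bb (adjusted p = 0.00609). The summed level of the fibroblast markers, of which Col1a1 had the highest values, was 7662 to 10875 on normal and 5393 to 8692 on high salt in SS, 5616 to 12281 and 2790 to 5536 in S2Ba, and 6483 to 10455 and 4118 to 7175 in S2Bb. Of the 6 fibroblast markers, Pdgfra was called lower in SS, Col1a1 and Dpt in S2Ba, and Col1a1 and Lum in S2Bb, none was called higher, and none was at 0. Their median log2 fold change was -0.264 in SS, -0.427 in S2Ba and -0.0427 in S2Bb, and in S2Bb the other 4 markers lay between -0.064 and 0.040. The median of the summed adipocyte markers was lower too (381.5 and 117.7 in SS, 182.9 and 97.81 in S2Ba, 226.8 and 122.4 in S2Bb, on normal and high salt), with overlapping ranges and 0 of 6 called. Among 7 pericyte markers, 0 were called in SS, 1 in S2Ba (Notch3, -1.016, lower) and 2 in S2Bb (Notch3, -1.293, lower, and Cspg4, 0.441, higher), with list medians of -0.333, -0.649 and -0.00869; Notch3 was at -0.711 in SS (limma adjusted p = 0.0871). Among 9 endothelial markers, Kdr was called lower in SS (-1.45) and S2Bb (-1.178), Cdh5 lower in SS (-0.619) and Vwf higher in S2Ba (0.730), with list medians of -0.303, -0.157 and -0.105. The summed pericyte and endothelial levels overlapped between diets in every strain. Core clock genes, which mark no cell type, were called in 8 (5 higher, 3 lower), 1 (lower) and 3 (1 higher, 2 lower) of 12, for SS, S2Ba and S2Bb. Of all genes tested, 8.38%, 15.2% and 22.1% were called in these strains. Macrophage markers were called in 0, 2 and 1 of 8 (all higher), in the same order. Smooth muscle markers were called in 0, 1 (higher) and 2 (1 higher, 1 lower) of 8. Skeletal muscle markers were called in 0, 2 (1 higher, 1 lower) and 1 (lower) of 4, and the 1 tested cardiac muscle marker in none. The part of the marked cell types in the Abcc9 result was not tested.

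Kcnj8, the Kir6.1 pore, was called lower in S2Bb and not in SS or S2Ba. In S2Bb it gave 55.49, 71.96 and 88.51 (lowest, median and highest) on normal salt and 37.18, 47.72 and 70.21 on high salt. On high salt, 4 of 6 libraries lay below the normal salt range and the other 2 inside it. The S2Bb mean fell from 72.77 ± 12.4 to 51.09 ± 13.1 (SD, n = 6 each), a log2 fold change of -0.53 (SE 0.17) with a limma adjusted p of 0.0254, where 11.4% of genes tested were called lower. This call was lost without S2Bb normal salt replicate 4 or 5 (adjusted p = 0.0651 and 0.0589) and without high salt replicate 1 or 2 (adjusted p = 0.0803 and 0.0637), with surrogate variables (log2 fold change -0.24, adjusted p = 0.261) and with no filter on the mean (adjusted p = 0.0529), all with limma. S2Ba libraries gave 42.64, 58.59 and 77.62 on normal salt and 36.92, 48.57, 43.39, 63.31 and 33.19 on high salt. In S2Ba, 2 of 5 high salt libraries were below the normal salt range. The S2Ba log2 fold change was -0.41 (95% interval -0.78 to -0.05, limma adjusted p = 0.118), and without high salt replicate 5 it was -0.54 (adjusted p = 0.0384). SS libraries gave 45.65, 57.77 and 80.27 on normal salt and 46.46, 60.44, 79.93, 67.29 and 65.30 on high salt, all 5 inside the normal salt range. The SS log2 fold change was 0.08 (95% interval -0.29 to 0.44, limma adjusted p = 0.827), and its sign turned with the clock components in the model (-0.27, limma adjusted p = 0.473). The correlation of Kcnj8 with Arntl over 34 libraries was -0.2, and with group means taken out it was -0.46. On high salt in S2Bb, replicates 1, 2 and 3 (Arntl 82.85, 79.85 and 80.23) had Kcnj8 values of 37.18, 40.02 and 47.69. Replicates 4, 5 and 6 (Arntl 20.64, 4.444 and 2.831) had 47.76, 63.7 and 70.21. SS high salt replicate 1 (Arntl 74.34) had the lowest SS high salt value, 46.46. In S2Ba the highest and lowest high salt values, 63.31 and 33.19, were in libraries with Arntl at 75.36 and 76.82. In S2Ba and S2Bb the clock components gave -0.49 (limma adjusted p = 0.0514) and -0.63 (limma adjusted p = 0.0435). The S2Bb response was 0.60 lower than that of SS (SE 0.25, 95% interval -1.11 to -0.09, unadjusted p = 0.0216), with a limma adjusted p of 0.308. Over the 9 settings other than leaving out 1 library, this difference ran from -0.61 to -0.26.

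The ratio of Abcc9 to Kcnj8 in SS ran from 5.00 through a median of 8.59 to 12.1 on normal salt and was 7.16, 5.11, 4.16, 4.71 and 5.22 on high salt. Of the SS high salt libraries, 2 of 5 were below the normal salt range, and the normal salt ratios themselves fell into 3 of 5.00 to 6.64 and 3 of 10.5 to 12.1. Medians were 7.41 and 6.44 in S2Ba and 6.74 and 6.23 in S2Bb, with overlapping ranges. These ratios were not tested.

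Kcnj2, the Kir2.1 inward rectifier, was low, with 621 reads over 34 libraries. Its normalised values in S2Ba were 0.9942, 1.906 and 3.421 (lowest, median and highest) on normal salt and 0.8926, 0.6476, 3.081, 0.524 and 1.6 on high salt. Of these high salt libraries, 3 of 5 were below the normal salt range, and replicate 4 was near its top. The S2Ba log2 fold change was -0.48 (95% interval -0.99 to 0.03, limma adjusted p = 0.201). It passed without high salt replicate 4 (-0.76, limma adjusted p = 0.0309) and with clock components in the model (-0.69, limma adjusted p = 0.0411). The log2 fold changes in SS and S2Bb were -0.22 and -0.12, with 95% intervals of -0.73 to 0.29 and -0.61 to 0.37 (limma adjusted p = 0.618 and 0.772). Clock components in the model gave -0.40 and -0.71 there (limma adjusted p = 0.415 and 0.0881), and surrogate variables turned the sign in SS (0.18, limma adjusted p = 0.808).

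Strain differences on the same diet were then compared, since each strain was fed both diets. None of the 5 tested genes was called between any 2 strains on either diet, by limma, edgeR or DESeq2. The share of all genes called was small as well: 0.267% for S2Ba against SS on normal salt and 1.73% on high salt, 1.44% and 0.267% for S2Bb against SS, and 3.15% and 0.609% for S2Ba against S2Bb. At an unadjusted p under 0.05, 1 of the 5 genes passed in S2Ba against SS on high salt, 1 in S2Bb against SS on high salt, 1 in S2Ba against S2Bb on normal salt and 0 in the other 3 comparisons. They were Kcnj8, at -0.51 in S2Ba against SS (95% interval -0.90 to -0.13, limma adjusted p = 0.151), Kcnma1, at 0.27 in S2Bb against SS (95% interval 0.03 to 0.51, limma adjusted p = 0.504), and Abcc9, at -0.33 in S2Ba against S2Bb (95% interval -0.60 to -0.06, limma adjusted p = 0.177). The comparisons of S2Ba and of S2Bb with SS share the SS libraries. For Abcc9 on high salt the strain means of 326.3, 292.4 and 323.0 differed by less than the SD of the S2Bb libraries (54.2), and for Kcnmb1 on high salt the means were 156.5, 147.7 and 155.6. On normal salt the Kcnmb1 means were 123.1 in SS, 133.2 in S2Ba and 118.4 in S2Bb, and no neighbouring pair in that order was called. The difference between the salt responses was called for 0 of 5 genes in S2Ba against SS, where it was called for 0% of all genes (1308 at an unadjusted p under 0.05, 1 called by edgeR and 10 by DESeq2), and for 0 of 5 in S2Bb against SS, where it was called for 0.171%. At an unadjusted p under 0.05, 0 of 5 passed in the former and 2, Kcnma1 and Kcnj8, in the latter. Responses of S2Ba and S2Bb were not tested against each other.

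Pooled over the groups, Abcc9 and Kcnmb1 moved in opposite directions also around their group means. Across 34 libraries the Pearson correlation of their log2 values was -0.83, and with group means taken out it was -0.66. Correlations within single groups were not computed. In S2Ba on normal salt, replicate 5 had the lowest Kcnmb1 value (124.6) together with an Abcc9 value (355.2) below the group median of 421.1. The libraries share a tissue, a diet within groups and the division by a library size factor, and S2Bb normal salt replicate 2 is extreme in both genes. Abcc9 and Kcnj8, which form 1 channel and are neighbouring genes, had a correlation of 0.09 with group means taken out, and Kcnma1 and Kcnmb1 one of -0.32. These correlations describe the libraries and were not tested.

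**Figure D4:**
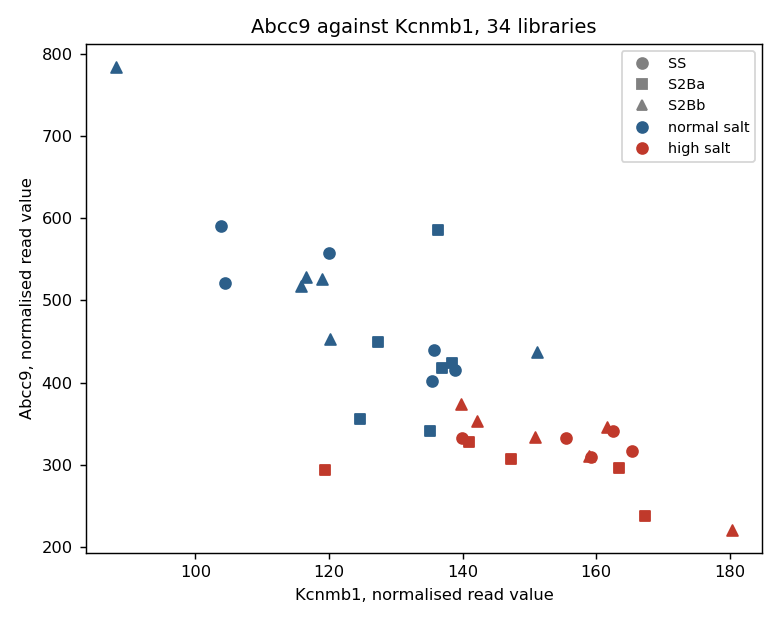
Abcc9 (y axis) against Kcnmb1 (x axis), both as normalised read values, with 1 point per library, shape for strain and colour for diet. High salt libraries lie at lower Abcc9 (220.9 to 374.0), and S2Bb normal salt replicate 2 stands alone at 783.9 for Abcc9 and 88.16 for Kcnmb1.

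The genes most like Abcc9, Kcnmb1, Kcnj8 and Kcnma1 over the 34 libraries were sought among 12561 genes with a mean of at least 1, by Pearson correlation of log2(value + 0.5). For Abcc9 they were Aox1 (0.955), Ptprd (0.939) and Atp1b2 (0.92), and with group means taken out Zbtb20 (0.918), Aox1 (0.912) and Cdc42bpa (0.874). Kcnmb1 was most like Casq1 (0.891), Calu (0.881) and Sparc (0.864), and with group means taken out Sparc (0.824), Colgalt1 (0.823) and Rpn2 (0.804). For Kcnj8 the closest were LOC501110 and Pdlim2 (0.866 each) and Tst (0.856), and with group means taken out Tst (0.882), LOC501110 (0.871) and Cmpk2 (0.866). Kcnma1 had weaker partners, Clip1 (0.687), Bbx (0.666) and Lonrf3 (0.65), and with group means taken out Bbx (0.745), Lbp (0.702) and Cdk19 (0.671).

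Among the other KATP and inward rectifier subunits, 13 of 14 listed genes were in the table and 5 were tested. Abcc8, which encodes SUR1, the sulfonylurea receptor of pancreatic beta cells and neurons, had values of 2.913, 3.594 and 4.083 (lowest, median and highest) in SS on normal salt and a highest value of 1.746 on high salt, with no overlap. Its mean fell from 3.485 ± 0.471 (SD, n = 6) to 1.55 ± 0.229 (SD, n = 5) in SS, a log2 fold change of -0.96 (SE 0.26, limma adjusted p = 0.0191). Abcc8 also fell in S2Ba, from 2.814 ± 1.22 to 0.7919 ± 0.452 (log2 fold change -1.36, limma adjusted p = 0.000513), and in S2Bb, from 2.99 ± 0.829 to 1.322 ± 0.668 (log2 fold change -1.002, limma adjusted p = 0.003). High salt libraries lay below the normal salt range in both, with highest values of 1.136 against a lowest of 1.369 in S2Ba and of 2.022 against 2.309 in S2Bb. Both sulfonylurea receptor genes, Abcc8 and Abcc9, were thus called lower on high salt in the 3 strains. Kcnj15, which encodes Kir4.2, fell in S2Bb (log2 fold change -1.04, limma adjusted p = 0.031), where 1 normal salt library reached 9.331 against a median of 1.464. Kcnj11, the Kir6.2 pore that partners SUR1, was not called (log2 fold changes -0.88 in SS, -0.61 in S2Ba and -0.50 in S2Bb, limma adjusted p = 0.13, 0.269 and 0.332). The list's median log2 fold change was -0.63 in SS, -0.31 in S2Ba and -0.64 in S2Bb, beside -0.02, -0.01 and -0.00159 over all genes tested.

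**Figure D5:**
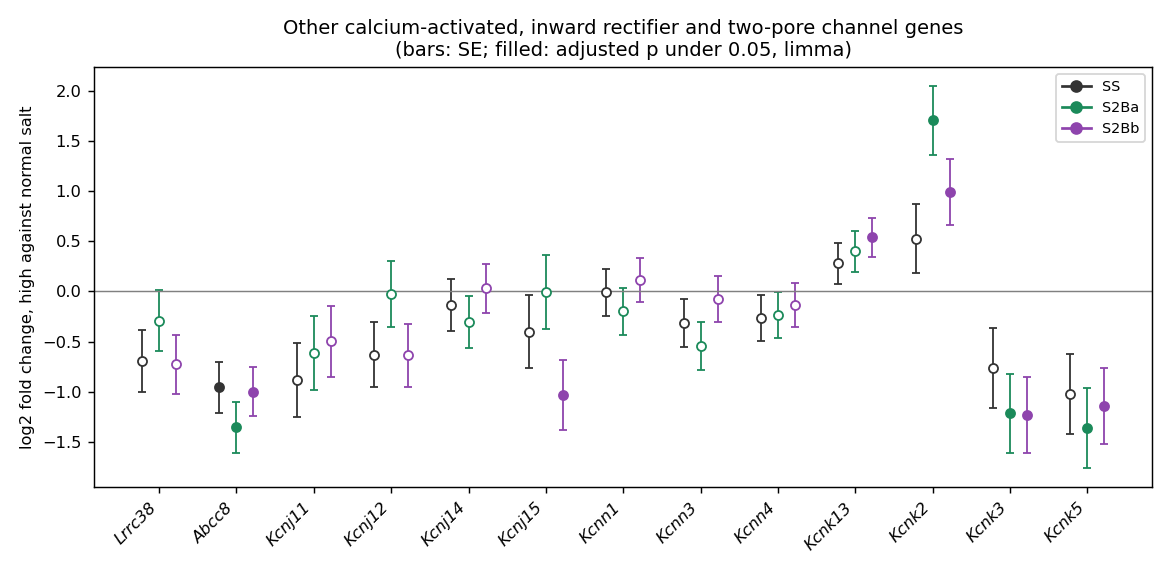
Log2 fold change with SE (y axis, high against normal salt) of 13 other calcium-activated, inward rectifier and two-pore channel genes (x axis) by strain, filled where the limma adjusted p was under 0.05. Abcc8 is filled and below 0 in all 3 strains, and Kcnk2 is highest in S2Ba at 1.71.

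None of the 3 tested small and intermediate conductance calcium-activated channels, Kcnn1, Kcnn3 and Kcnn4, was called in any strain (limma), with log2 fold changes of -0.54 to 0.12; Kcnn3 in S2Ba had an unadjusted p of 0.0307. The 1 tested auxiliary BK subunit outside the Kcnmb genes, Lrrc38, was not called either, at -0.69 in SS (limma adjusted p = 0.152), -0.29 in S2Ba (0.557) and -0.73 in S2Bb (0.07). Two-pore potassium channels, which carry background current, were called in 0 of 4 tested genes in SS, in 3 of 4 in S2Ba (1 higher and 2 lower) and in 4 of 4 in S2Bb (2 higher and 2 lower), beside 8.38%, 15.2% and 22.1% of all genes tested. Kcnk2, the mechanosensitive TREK-1 channel, rose from 0.3238 ± 0.202 to 2.494 ± 1.72 in S2Ba (log2 fold change 1.71, limma adjusted p = 0.000899) and from 0.4946 ± 0.7497 to 1.308 ± 0.726 in S2Bb (0.996, limma adjusted p = 0.0261). Both normal salt means lay under the 0.5 that a gene had to reach over all libraries to be tested. Kcnk2 passed that filter through its higher groups. These calls, and the channel counts above that include them, are therefore given as a description. Kcnk3, the acid-sensitive TASK-1 channel, fell from 7.19 ± 4.96 to 2.462 ± 1.22 in S2Ba (-1.22, limma adjusted p = 0.0344) and from 13.05 ± 3.76 to 5.757 ± 3.68 in S2Bb (-1.24, limma adjusted p = 0.0169). Kcnk5 fell in both as well (-1.37 and -1.14, limma adjusted p = 0.0184 and 0.0284). In SS the same 3 genes had log2 fold changes of 0.53, -0.77 and -1.03, none called, and the interaction test called none of the 4 in either congenic strain.

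The regulators of BK and KATP channels form a list that includes calcium release, cyclic nucleotide and kinase genes. It also holds, among others, Cacna1c, Trpc1, Hmox1, Cav1 and Nedd4l. Of the 27 regulators tested, 1 was called in SS (higher), 6 in S2Ba (2 higher and 4 lower) and 8 in S2Bb (4 higher and 4 lower). The shares of all genes tested that were called in these strains were 8.38%, 15.2% and 22.1%. Pln, which encodes phospholamban, the inhibitor of the sarcoplasmic reticulum calcium pump, rose in each strain, from 309.8 ± 89.8 to 535.4 ± 80.2 in SS, from 348.4 ± 114 to 690.9 ± 137 in S2Ba and from 188.8 ± 26.3 to 623.4 ± 170 in S2Bb (log2 fold changes 0.82, 1.03 and 1.70, limma adjusted p = 0.00963, 0.000578 and 2.15e-07). Ryr2 and Ryr3, the ryanodine receptors through which calcium sparks arise, rose in S2Bb (0.61 and 1.27, limma adjusted p = 0.000211 and 9.92e-05) and were not called in the other 2 strains. On normal salt both were lower in S2Bb than in SS (-0.48 and -1.40, limma adjusted p = 0.0213 and 0.00028), and that comparison uses the same S2Bb normal salt libraries. Gucy1b3, the other subunit of soluble guanylate cyclase, was the remaining 1 of the 3 regulators called there (0.35 higher in S2Bb, limma adjusted p = 0.0162). S2Ba against S2Bb on normal salt called 5 regulators, led by Pde5a, a cGMP phosphodiesterase (-0.42, limma adjusted p = 0.00179), Pln (0.83, limma adjusted p = 0.00993) and Atp2a2, the sarcoplasmic reticulum calcium pump (-0.39, limma adjusted p = 0.0168). On high salt 1 was called in that comparison (Pde5a, -0.34, limma adjusted p = 0.0384) and 1 in S2Ba against SS (Gucy1a3, -0.58, limma adjusted p = 0.0399), and 0 in the other 2 strain comparisons and in the differences between salt responses. Gucy1a3, a subunit of soluble guanylate cyclase, the nitric oxide receptor upstream of BK channel activation, fell in S2Ba from 341.8 ± 75.7 to 161.3 ± 24.97 (-1.07, limma adjusted p = 1.6e-05) and in S2Bb from 357.4 ± 22.9 to 222.5 ± 64.2 (-0.73, limma adjusted p = 0.000232), and was not called in SS (-0.40, limma adjusted p = 0.078). Src, a tyrosine kinase gene, fell in S2Ba (-0.43, limma adjusted p = 0.0137) and in S2Bb (-0.48, limma adjusted p = 0.00257). Across the 27 genes the median log2 fold change was -0.000824 in SS, -0.02 in S2Ba and -0.03 in S2Bb, beside those medians over all genes tested.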

How the data were processed

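Aortic total RNA libraries were analysed for 34 of the 36 labelled samples; the other 2 were not analysed here. Per the labels' protocols, libraries were made with the TruSeq total RNA kit from RNA of high integrity and sequenced as paired reads of 75 bases. The tools named, per the submitters' processing notes, include edgeR 3.6.8 and R 3.2.3, the aligner STAR 2.3.1, FastQC and bcl2fastq 1.8.4. For the genome build, the counting tool and its strand setting, the entry is "not given in the sources used here", so reads from antisense genes cannot be told apart. The deposited table by the authors gives 1 normalised signal per gene and library. All values (100%) came out as whole reads within 0.01 reads when divided by a step of 0.0659 to 0.12 per library, so the values are reads divided by a library size factor, and depths of 8753735 to 15168833 reads were recovered. The 29 rows without a symbol held at most 0.0195% of a library's reads.

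Samples were grouped by the labels' strain and diet, and replicate numbers follow accession order. The main test was limma 3.58.1 (R 4.3.3) with a trended prior on log2(value + 0.5), over the 13475 of 26106 genes with a mean of at least 0.5, as 1 fit of 6 group means with 11 contrasts and Benjamini-Hochberg adjustment over the genes tested. Alternatives were edgeR 4.0.16 and DESeq2 1.42.0 on the recovered reads, pseudocounts of 0.1 and 1, no filter, upper quartile scaling, only the groups compared, the 2 leading components of 12 core clock genes, 8 surrogate variables (sva 3.50.0), and leaving out each library. The limma step was tested on simulated data with known changes.

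All 7 genes were named. Genes of the other lists were counted, and up to 3 called genes per channel or regulator list and comparison, by smallest adjusted p, were named, with further strains of a named gene; marker and core clock lists are given mainly as counts. Kcnj11, Lrrc38 and the Kcnn genes, none of them called, and the markers named were added after their values were seen. The members and lists were chosen with earlier results of these data known. Promoter windows come from RefSeq (GRCr8). The genes most like Kcnj2 across libraries are not reported here.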

Additional observations from a re-analysis of the deposited data

Results flagged for a closer look

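One value stood apart from its group. Abcc9 in S2Bb normal salt replicate 2 was 783.9 (10502 reads), and the nearest of the other 5 libraries was at 528.1, a gap of 0.739 of the whole range of the group. It was the 1 library that stood apart among 39 groups tested, where chance gives about 1 in 20. Kcnmb1 in the same library was 88.16, the lowest of the 34 libraries, and Kcnma1 was 290.4, the highest of the 6 S2Bb normal salt libraries. Without it the Abcc9 salt response in S2Bb was -0.62 on the log2 scale (limma adjusted p = 0.00061) instead of -0.74.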

How the results depend on the processing

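Of 1230 log2 fold changes of the 5 tested genes under other settings, 1209 kept their side of the threshold, 17 lost the call and 4 gained one. The sign changed in 45 of them, none with a call under either setting. The number of genes called on high salt in SS was 2 and became 1 with clock components or with surrogate variables, and was 1 to 2 when 1 library was left out. In S2Ba it was 1 and became 2 with clock components and 0 with surrogate variables, and was 1 to 2 when 1 library was left out. In S2Bb it was 3 and became 1 with surrogate variables and 2 with no filter on the mean, and was 2 to 3 when 1 library was left out. The cause was not tested. Every count for strain comparisons and for differences between salt responses was 0 under all settings run. Surrogate variables also gave the 1 call of Kcnma1, lower in SS (-0.33, limma adjusted p = 0.0451). No paired analysis was possible because replicate numbers only follow accession order and pair no samples.

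Depth limits Kcnmb2 (19 reads), Kcnmb4 (171 reads) and Kcnj2 (621 reads). Ranges of Abcc9 log2 fold changes over the 9 other settings were -0.70 to -0.27 in SS, -0.55 to -0.12 in S2Ba and -0.74 to -0.35 in S2Bb, with the smallest changes under surrogate variables.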
